A study of Danio rerio with 2 samples.

Results

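Aquaporins are membrane channels that pass water, and the subgroup called aquaglyceroporins also passes glycerol and other small solutes. In mammals, AQP1 sits in the ventricle-facing membrane of the choroid plexus epithelium, the tissue that makes most of the cerebrospinal fluid, and AQP4 sits in astroglia and in the ependyma that lines the ventricles. In zebrafish, aqp1a.1 is also known from endothelium and red blood cells.

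The channels described here are 10 zebrafish aquaporin genes taken by symbol, namely aqp1a.1, aqp1a.2, aqp3a, aqp3b, aqp4, aqp8a.1, aqp9a, aqp10a, aqp11 and aqp12. Of these, 7 were found by name in the authors' gene table among the 25432 genes of each library, and aqp10a was added through a reference table of symbols, which makes 8 matched genes. The symbols aqp1a.2 and aqp9a matched no gene ID and are not analysed here. A gene entry that the reference table calls AQP1 (ENSDARG00000091027), separate from aqp1a.1, had 0 counts in both libraries, and no source used here pairs it with aqp1a.2.

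RNA was sequenced from the forebrain choroid plexus of untreated adult zebrafish 6 to 8 months old and over 3 cm long, dissected with the pineal gland removed. The fish were AB and nacre (mitfa-/-), a pigment mutant, and the labels do not say which fish went into which library. RNA was purified with glycogen or with a spin column, and which method each library used is not in the labels either. There was 1 group with 2 libraries, each made from whole tissue pooled from 12 to 19 choroid plexuses, and the titles call them batch 1 and batch 2 (replicates 1 and 2 here). A difference between the replicates therefore cannot be told apart from a difference between the batches. With a single group no test between conditions was possible, and the values below are levels with the spread of the 2 pools.

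The libraries held 11712489 and 13446356 expected counts, the gene counts that RSEM estimates. Of 9 choroid plexus epithelium markers, 7 (77.8%) were at 1 TPM or more in both replicates, beside 54.6% of all genes. The summed level of the 9 was 37251 and 40684 TPM. Highest were rbp4 (32798 and 35995 TPM), igfbp2a (1902 and 1932 TPM), clic6 (1426 and 1513 TPM) and krt8 (805 and 870.1 TPM). The genes ttr (0.20 and 0.51 TPM) and kl (0.20 and 0.21 TPM) were near 0. TPM divides counts by transcript length and scales each library to the same sum, so levels of different genes can be compared. Replicate 1 stood apart by pineal and photoreceptor genes, from a marker list chosen, like the others, with earlier results of these data known. Of these 9 genes, 9 were at least 4-fold higher there, beside 1.18% of all genes with a mean of at least 1 TPM. Their summed level was 3088 TPM against 45.99 TPM in replicate 2. They were led by rcvrnb (862 and 5.50 TPM), pde6ha (812 and 13.0 TPM), exorh (656 and 11.7 TPM) and gngt1 (351 and 2.20 TPM).

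Transcripts of the 8 matched aquaporins came mostly from aqp1a.1, aqp11 and, in replicate 2, aqp3a. The share of aqp3a in the summed aquaporin TPM was 6.09% in replicate 1 and 23.8% in replicate 2. In replicate 1 the 8 matched genes summed to 23.8 TPM from 390 expected counts, and in replicate 2 to 31.0 TPM from 578, a mean of 27.4 ± 5.10 TPM (SD, n = 2). Of the 8 genes, 4 (50%) were detected, meaning at least 1 TPM in both replicates. Detection at this level was common, since 54.6% of all genes reached it, a share close to that of the aquaporins. Only aqp1a.1 was at 10 TPM or more in both replicates, a level that 26.3% of all genes reached, and no aquaporin was at 100 TPM, which 3.12% of all genes reached. The median of the mean levels was 0.81 TPM over the 8 aquaporins and 2.53 TPM over all genes. In whole tissue, fewer cells of a type and less RNA per cell cannot be told apart.

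**Figure D1:**
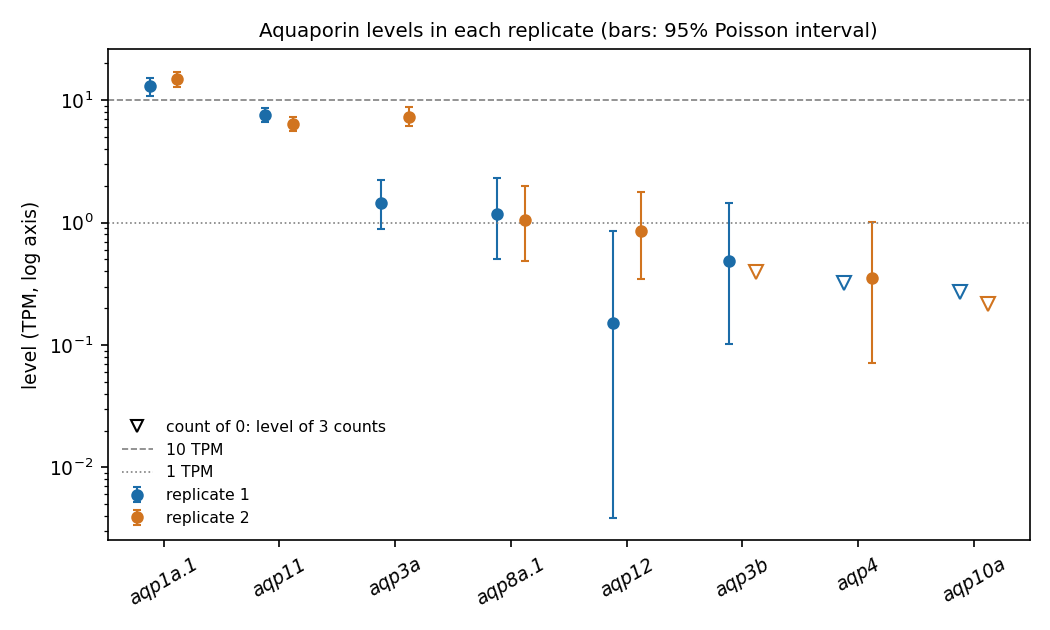
Level of each matched aquaporin in TPM (log axis) in replicate 1 (blue) and replicate 2 (orange), with bars for the exact 95% Poisson interval of the count, and open triangles at the level of 3 counts where the count was 0. Both points of aqp1a.1 lie above 10 TPM, the points of aqp3a lie apart at 1.45 and 7.37 TPM, and aqp12, aqp3b, aqp4 and aqp10a lie below 1 TPM.

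The most abundant aquaporin was aqp1a.1 (ENSDARG00000023713), a water channel related to mammalian AQP1. Its level was 12.98 TPM in replicate 1, from 136 expected counts (exact Poisson 95% interval 10.9 to 15.4 TPM), and 14.93 TPM in replicate 2, from 195 counts (12.9 to 17.2 TPM). These intervals, like the others given here, cover counting error only and not the spread between pools, and the reads carried no known molecular identifiers. Both replicates were close, with a mean of 13.96 ± 1.38 TPM (SD, n = 2). It held 54.5% of the summed aquaporin TPM in replicate 1 and 48.1% in replicate 2. In rank, 73.5% of all genes lay below aqp1a.1 in replicate 1 and 79.2% in replicate 2.

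The next was aqp11 (ENSDARG00000100555), a member of the divergent subgroup whose mammalian counterpart is found mainly inside cells, in the endoplasmic reticulum. It was at 7.57 TPM in replicate 1 from 222 expected counts (95% interval 6.61 to 8.64 TPM) and at 6.45 TPM in replicate 2 from 237 counts (5.65 to 7.32 TPM). The replicates again lay close together, at 7.01 ± 0.792 TPM (SD, n = 2), and their counting intervals overlapped. In both replicates aqp11 was below aqp1a.1 in TPM, with aqp1a.1 at 1.71 and 2.31 times its level. By counts alone aqp11 was the higher of the pair in both replicates. Its effective length was 3281 bases against 1172 bases for aqp1a.1 in replicate 1, so the order depends on dividing by length.

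Of the aquaporins with at least 1 TPM, aqp3a (ENSDARG00000003808) varied most. It encodes an aquaglyceroporin related to mammalian AQP3, which is known from skin and other epithelia. Its level was 1.45 TPM in replicate 1, from 20 expected counts (95% interval 0.886 to 2.24 TPM), and 7.37 TPM in replicate 2, from 127 counts (6.14 to 8.77 TPM). The counting intervals did not overlap, and the mean of 4.41 ± 4.19 TPM (SD, n = 2) says little about either pool. It ranked above 43.0% of all genes in replicate 1 and above 67.7% in replicate 2.

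The last detected member was aqp8a.1 (ENSDARG00000045141), related to mammalian AQP8, a channel that passes ammonia and hydrogen peroxide as well as water. It was at 1.17 TPM in replicate 1, from 8 expected counts (95% interval 0.504 to 2.30 TPM), and at 1.06 TPM in replicate 2, from 9 counts (0.484 to 2.01 TPM). It therefore lay just inside the limit of detection, and its counting intervals reach below 1 TPM. Just outside was aqp12 (ENSDARG00000043279), of the same divergent subgroup as aqp11 and known in mammals from the pancreas, at 0.15 TPM from 1 count in replicate 1 and at 0.86 TPM from 7 counts in replicate 2.

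Transcripts of aqp4, the main water channel of mammalian astroglia, were close to absent. The gene aqp4 (ENSDARG00000010565) had 0 counts in replicate 1, where 3 counts, the one-sided 95% limit that a count of 0 allows, would be 0.320 TPM. In replicate 2 it had 3 counts and was at 0.35 TPM (95% interval 0.0715 to 1.01 TPM). Genes often used to mark radial glia were at other levels in the same libraries. Of 8 such markers, 7 (87.5%) were detected, beside 54.6% of all genes. The highest were glulb (1135 and 937 TPM), glula (905 and 1001 TPM), fabp7a (687 and 919 TPM) and s100b (658 and 506 TPM). The filament gene gfap, a defining marker, was at 4.17 TPM in replicate 1 and 3.14 TPM in replicate 2. The glial glutamate carrier genes slc1a2b (14.5 and 1.77 TPM) and slc1a3b (4.22 and 0.07 TPM) were at least 4-fold higher in replicate 1. Of the 8 markers, 6 were higher in replicate 1, and 2, glula and fabp7a, were lower there. Several of the 8 markers are also expressed outside glia, so their levels do not give a number of glial cells.

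The duplicate of aqp3a was also near the limit. In replicate 1, aqp3b (ENSDARG00000069518) was at 0.49 TPM from 3 counts. In replicate 2 it had 0 counts, where 3 counts would be 0.398 TPM. In replicate 2, aqp3a was at 7.37 TPM. For aqp10a (ENSDARG00000007086), an aquaglyceroporin related to the intestinal AQP10 of mammals, both replicates had 0 counts, where 3 counts would be 0.270 and 0.216 TPM. A count of 0 does not exclude expression of these genes below those limits.

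Neighbours in the order of mean level were not all apart. The ranges of aqp1a.1 and aqp11, of aqp3a and aqp8a.1, and of aqp8a.1 and aqp12 did not overlap, but the last pair rests on at most 9 counts a library. In replicate 1, aqp3a and aqp8a.1 rest on 20 and 8 counts, and their counting intervals there overlap, so neither of these pairs is set apart beyond counting error in both replicates. The ranges of aqp11 and aqp3a overlapped, with aqp11 5.22 times as high as aqp3a in replicate 1 and 0.875 times as high in replicate 2. Those of aqp12, aqp3b, aqp4 and aqp10a overlapped from each to the next. All 8 genes had whole expected counts, so RSEM split no read into fractions between them and another gene. Whole counts were usual, since only 4.5% of all genes in replicate 1 and 4.2% in replicate 2 lacked them. A shared read given wholly to a single gene would also leave whole counts. In the RefSeq assembly GRCz12tu, aqp1a.1 and aqp1a.2 are neighbouring genes, and so are aqp8a.1 and aqp8a.2.

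Of 9 further symbols of the aquaporin family, 7 were matched and none was detected, where 54.6% of all genes were. All 7 were below 1 TPM in both replicates, with a summed level of 0.32 TPM in replicate 1 and 0.75 TPM in replicate 2. The most counts, 4, were those of aqp7 and aqp10b in replicate 2. Both are aquaglyceroporins, and in replicate 1 they had 2 and 0 counts. The tandem partner aqp8a.2 had 1 count in replicate 1 and 0 in replicate 2, while the lens channel genes mipa and mipb had at most 2 counts in either replicate. For aqp9b, an aquaglyceroporin related to mammalian AQP9, the counts were 1 and 3, and for aqp8b they were 0 and 0.

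Between the replicates, 1 of the 4 aquaporins with a mean of at least 1 TPM differed at least 4-fold, namely aqp3a. The rule of size took the log2 ratio of TPM + 1, replicate 1 over replicate 2, less the median of all genes with a mean of at least 1 TPM, which was 0.25. A pseudocount of 1 understates the differences of low genes. By this rule 2.12% of all genes with such a mean differed at least 4-fold in either direction, 1.18% with the higher level in replicate 1 and 0.939% with the lower level there. Among genes with a mean of 2 to 10 TPM, the band that holds aqp3a, 3.11% differed in either direction and 1.25% were lower in replicate 1. The log2 ratio of aqp3a was -2.03, just past the limit, and without removal of the median it was -1.77, which falls short of 4-fold. With no pseudocount and no removal of the median, its TPM in replicate 1 was 0.197 times that in replicate 2, with an exact binomial 95% interval of 0.116 to 0.317 for counting error. This compares 2 libraries and not 2 conditions.

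By the ratio alone, the other detected channels differed by less. With no pseudocount and no removal of the median, aqp1a.1 in replicate 1 was at 0.870 times its TPM in replicate 2 (95% interval 0.694 to 1.09). On the same scale aqp11 was at 1.17 times (0.973 to 1.42). On that scale both intervals include equal levels and exclude a 2-fold difference in either direction. No interval was computed with the median removed, where the log2 ratios of TPM + 1 were -0.44 for aqp1a.1 and -0.05 for aqp11. For aqp8a.1 the ratio of TPM, without removal of the median, was 1.104 with an interval of 0.371 to 3.22, which includes a 2-fold difference either way. For aqp12, which was not detected, it was 0.177 with an interval of 0.00393 to 1.38, so a difference like that of aqp3a was not resolved at this depth. No ratio is given for aqp3b and aqp4, whose counts did not exceed 3 in either replicate.

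**Figure D2:**
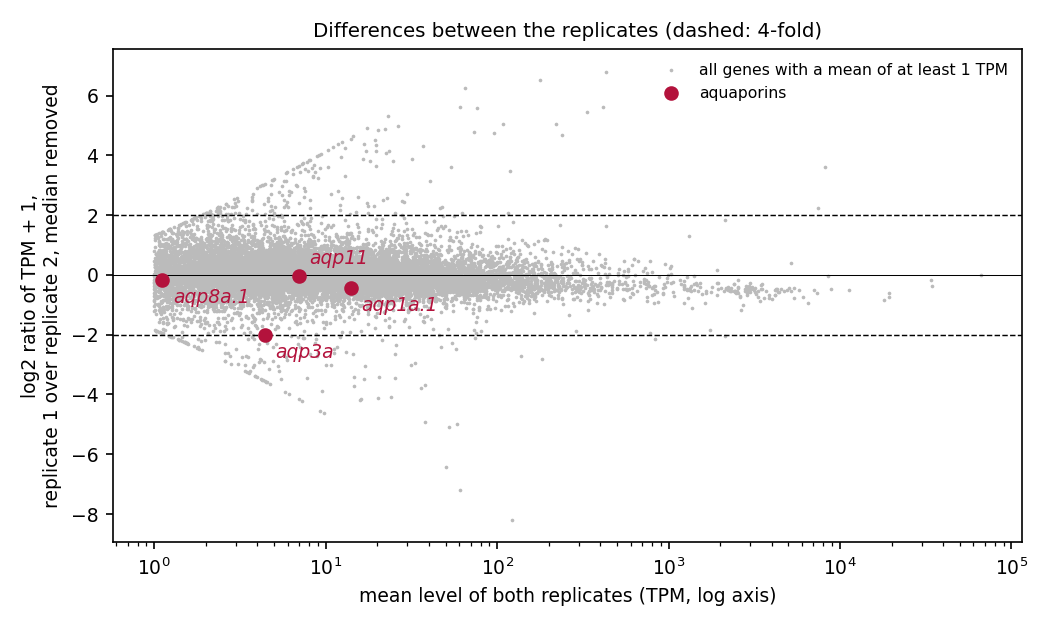
Log2 ratio of TPM + 1, replicate 1 over replicate 2 with the median removed, against the mean level in TPM (log axis) for all genes with a mean of at least 1 TPM (grey) and for aquaporins (red), with dashed lines at 4-fold. The point of aqp3a lies at -2.03, at the lower dashed line, and aqp1a.1, aqp11 and aqp8a.1 lie between -0.44 and -0.05.

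Markers of several cell types also differed between the replicates, and their part in the difference of aqp3a was not tested. Skin and ionocyte markers were considered because aqp3 genes are known from skin. Of 9 such markers, 3 (33.3%) were detected, beside 54.6% of all genes. These were icn (1140 and 1334 TPM), krt5 (5.56 and 10.56 TPM) and krt4 (3.91 and 7.37 TPM). All 3 were lower in replicate 1 with the median removed or not, none of them by 4-fold. The summed level of the list was 1151 TPM in replicate 1 and 1353 TPM in replicate 2, nearly all of it from icn. Of the defining factors, tp63 of basal keratinocytes was at 0.08 and 0.18 TPM, foxi3a of ionocytes at 0 and 0.07 TPM, and foxi3b at 0 in both replicates. The keratin gene krtt1c19e was at 1.28 TPM in replicate 1 and 0.48 TPM in replicate 2.

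Most blood and vessel markers were lower in replicate 1 as well, and so were most markers of the epithelium itself. Removal of the median leaves as many genes with a mean of at least 1 TPM lower in replicate 1 as higher. Without its removal, the median log2 ratio of these genes was 0.25, with the higher level in replicate 1. The counts of markers are therefore descriptions only. Of 7 choroid plexus epithelium markers with a mean of at least 1 TPM, 6 were lower in replicate 1 with the median removed and 5 without. All 7 erythrocyte markers with a mean of at least 1 TPM were lower in replicate 1, with the median removed or not, and the summed level of the 8 markers was 1774 TPM in replicate 1 and 5947 TPM in replicate 2. The globin genes hbba1 (1322 and 4496 TPM, summed over 2 entries) and hbaa1 (353 and 1319 TPM) passed the 4-fold rule. The globin genes hbba2 (44.2 and 52.3 TPM) and hbaa2 (28.6 and 29.6 TPM) were nearly level. The summed level of erythrocyte markers in replicate 1 was 0.298 times that in replicate 2, and 0.756 times over the 6 markers other than hbba1 and hbaa1, beside 0.197 for aqp3a and 0.870 for aqp1a.1. Of 9 endothelial markers, 9 were detected, beside 54.6% of all genes. Of these markers, 8 were lower in replicate 1 with the median removed and 7 without, and their summed level was 148 and 174 TPM. Among them, plvapa, of the diaphragms of fenestrated vessels, was at 71.9 and 76.95 TPM, kdrl, a receptor for vascular growth factor, at 30.4 and 33.6 TPM, and plvapb at 22.8 and 26.3 TPM. The claudin gene cldn5b was the 1 endothelial marker past the 4-fold rule, at 2.83 TPM in replicate 1 and 14.5 TPM in replicate 2.

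**Figure D3:**
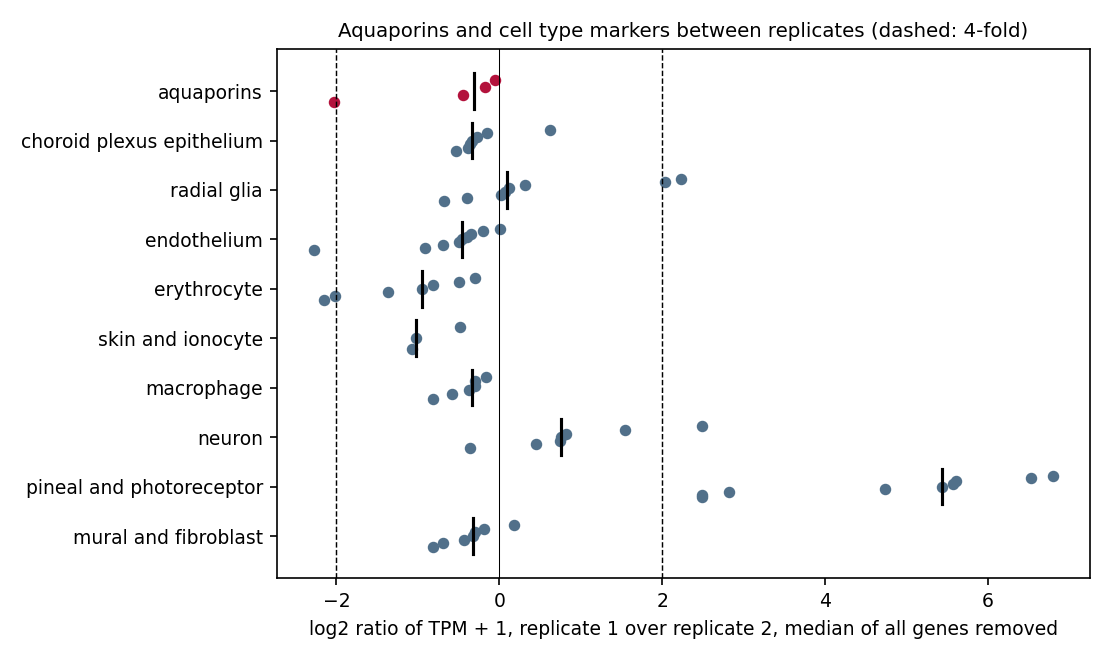
Log2 ratio of TPM + 1, replicate 1 over replicate 2 with the median of all genes removed, for aquaporins (red) and markers of 9 cell types (blue) with a mean of at least 1 TPM; each point is a gene, the black line is the median of the list and dashed lines mark 4-fold. The list medians were -0.31 for aquaporins, -0.34 for choroid plexus epithelium, -0.34 for macrophages and -0.33 for mural cells and fibroblasts. They were -0.45 for endothelium, -0.95 for erythrocytes, -1.02 for skin and ionocytes and 5.44 for pineal and photoreceptor genes.

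Pineal markers and most neuronal markers went the other way. The median log2 ratio was 5.44 over the 9 pineal and photoreceptor markers and 0.76 over the 7 neuron markers with a mean of at least 1 TPM. Of these 7, 6 were higher in replicate 1, among them stmn1b (87.7 and 53.5 TPM), snap25b (15.9 and 3.84 TPM) and syt1a (8.74 and 0.46 TPM), and map2 was lower there (29.4 and 31.8 TPM). None of the 4 aquaporins with such a mean had a log2 ratio above 0 once the median was removed. Without its removal aqp11 (0.20) and aqp8a.1 (0.08) were above 0. Removal of the median leaves as many genes with such a mean below 0 as above it, so the sign in 4 genes says little. For macrophages, 6 of 6 markers with such a mean were lower in replicate 1 with the median removed and 5 without (summed level 281 and 357 TPM), led by cd74a (133 and 197 TPM), lgmn (122 and 133 TPM), marco (10.3 and 10.7 TPM) and csf1ra (8.99 and 9.29 TPM). For mural cells and fibroblasts the counts were 6 and 5 of 7 (175 and 199.7 TPM), with pdgfrb at 67.9 and 64.6 TPM, dcn at 46.3 and 69.0 TPM, acta2 at 27.4 and 28.8 TPM and tagln at 11.8 and 12.3 TPM.

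Genes of ion transport for fluid secretion, a list that also holds carbonic anhydrase genes and a pump regulator, were far more abundant than the aquaporins. Of 22 symbols 19 were matched, and 14 of the 19 were detected, 11 at 10 TPM or more and 7 at 100 TPM or more in both replicates. The detected share was 73.7% and the share at 10 TPM or more 57.9%, beside 54.6% and 26.3% of all genes. This list and the related lists below were chosen with earlier results of these data known, so their shares are descriptions only. The summed level of the 19 genes was 4677 TPM in replicate 1 and 5005 TPM in replicate 2, beside 23.8 and 31.0 TPM for the 8 aquaporins. The median of the mean levels was 17.6 TPM over this list and 0.81 TPM over the aquaporins. Not detected were, among others, slc4a10a (0.99 and 0.12 TPM), slc4a10b (0.37 and 0.18 TPM) and cftr (0.10 and 0.20 TPM). The sodium pump genes atp1b1a (949 and 1520 TPM), atp1a1b (1059 and 1060 TPM) and atp1a1a.1 (678 and 1058 TPM) led the list, with the pump regulator fxyd1 at 731 and 493 TPM. The level of atp1a1b was 81.6 times that of aqp1a.1 in replicate 1 and 71.0 times in replicate 2.

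Some cotransporters and carriers have been reported to pass water in mammals. Of 7 matched genes of this kind, 6 were detected, and 3 were at 10 TPM or more in both replicates, which is 85.7% and 42.9% beside 54.6% and 26.3% of all genes. The sodium, potassium and chloride cotransporter gene slc12a2 was at 70.7 and 75.9 TPM, which is 5.45 and 5.08 times the level of aqp1a.1. This gene is also counted in the list of ion transport for fluid secretion above. The potassium and chloride cotransporter gene slc12a4 was at 71.3 and 47.9 TPM, the glucose carrier gene slc2a1b at 42.95 and 36.4 TPM, and the monocarboxylate carrier gene slc16a1b at 13.3 and 7.94 TPM. The sodium and glucose cotransporter gene slc5a1 had 0 counts in both replicates.

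In mammalian glia, AQP4 is anchored at the membrane by the dystrophin and dystroglycan complex. Most genes of this complex, counted here with the extracellular matrix genes agrn and lama2, were detected although aqp4 was not. Of 15 genes, 13 were detected and 10 were at 10 TPM or more in both replicates, which is 86.7% and 66.7% beside 54.6% and 26.3% of all genes. The dystroglycan gene dag1 was at 113 and 75.4 TPM, the dystrobrevin gene dtnba at 63.2 and 54.3 TPM, the dystrophin relative utrn at 67.1 and 44.8 TPM and the agrin gene agrn at 65.9 and 44.8 TPM. No gene of the list differed 4-fold between the replicates.

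Glycerol, which aquaglyceroporins pass, is made and used by enzymes of glyceride metabolism. Of 13 matched genes of 14, 10 were detected and 3 were at 10 TPM or more in both replicates, which is 76.9% and 23.1% beside 54.6% and 26.3% of all genes. The share at 10 TPM was therefore no higher than over all genes. The glycerol-3-phosphate dehydrogenase gene gpd1b was highest at 264 and 251 TPM. The monoglyceride lipase gene mgll was at 40.8 and 24.7 TPM, the triglyceride lipase gene pnpla2 at 10.89 and 15.3 TPM and the mitochondrial dehydrogenase gene gpd2 at 9.44 and 7.43 TPM.

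Genes of cell volume and osmolyte regulation were detected for 13 of 19 matched genes, of which 5 were at 10 TPM or more in both replicates. These shares, 68.4% and 26.3%, stand beside 54.6% and 26.3% of all genes, so at 10 TPM the list was at the level of all genes. They were led by the taurine carrier gene slc6a6a at 242 and 178 TPM. The volume-regulated anion channel gene lrrc8aa was at 29.2 and 24.7 TPM, the kinase gene oxsr1b at 21.2 and 19.6 TPM and the myo-inositol carrier gene slc5a3b at 19.9 and 13.5 TPM. Of the aquaporins, only aqp1a.1 reached the 10 TPM that these 4 genes exceeded.

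**Figure D4:**
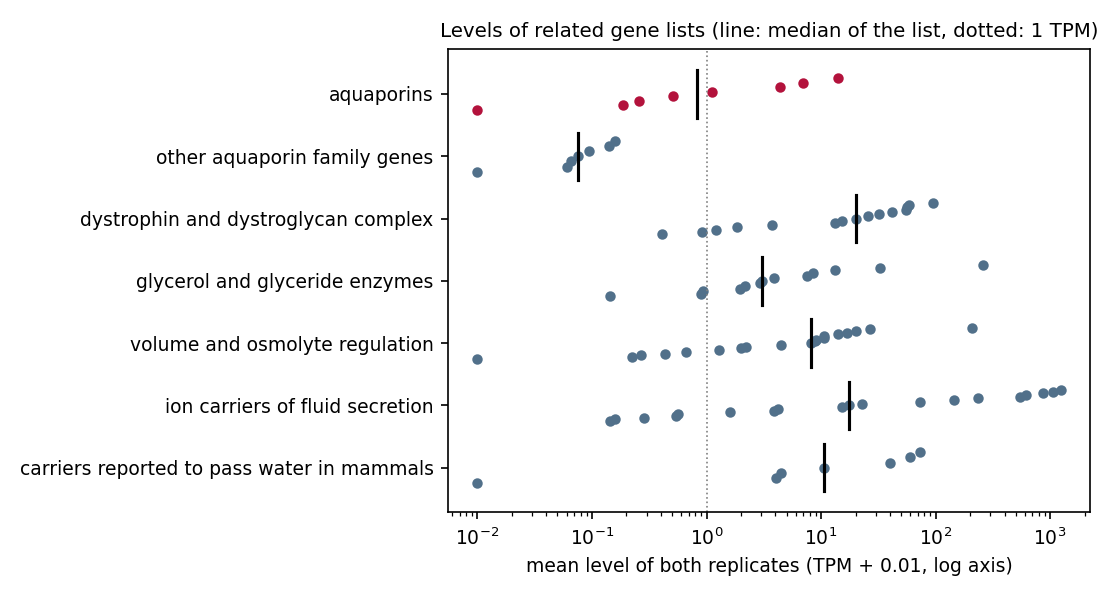
Mean level of both replicates in TPM + 0.01 (log axis) for the matched aquaporins (red) and the genes of 6 related lists (blue), with a black line at the median of each list. The median was 0.81 TPM for the aquaporins, 0.065 TPM for other aquaporin family genes, 20.05 TPM for the dystrophin and dystroglycan complex and 17.6 TPM for ion carriers of fluid secretion.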

How the data were processed

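Reads were processed with STAR and RSEM 1.3.3 against GRCz11, per the submitters' processing notes. For the gene annotation and the STAR version, the sources used here give nothing, and no coordinates are printed. The authors deposited 1 file a library with RSEM expected counts, TPM and FPKM per gene, per the file headers, with gene lengths (in bases) and effective lengths as other columns. A table of the whole series gave gene names and a TPM within 0.005 of the libraries' mean, and was used for names only. Genes outside it had a mean of at most 0.005 TPM. Genes to which it gave no name were named from a reference table where that held a symbol.

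Levels were summarised as mean ± SD of 2 replicates with Python 3.11.15, pandas 2.3.3 and scipy 1.17.1. Exact Poisson intervals used rounded counts, turned into TPM by the value of 1 count of that gene, and ratio intervals were exact binomial (Clopper-Pearson). No hypothesis test was run, since there was 1 group. The ratio rule was tried on simulated data, with differences larger than 4-fold set in genes with a mean of at least 10 TPM. Recovery of a difference at the level and size of that of aqp3a was not tried. The members, gene lists and marker lists were chosen with earlier results of these data known. All members were named, and for other lists the rule asked for their 4 highest genes. The rule also asked for each gene with a mean of at least 10 TPM past the 4-fold rule, which was not followed for 3 more pineal genes. The genes ttr, kl, gfap, slc1a2b, slc1a3b, tp63, foxi3a, foxi3b, slc5a1 and the undetected aquaporin family genes were named after their values were seen. Also outside the rule were slc4a10a, slc4a10b and cftr, named as undetected, while other undetected genes of their list were not named. Alternatives were other thresholds, CPM (counts scaled to the library total), FPKM, a pseudocount of 0.1, other centring and each replicate left out.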

Additional observations from a re-analysis of the deposited data

How the results depend on the processing

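With only 2 pools, no spread within a batch can be had, and counting intervals are wide for levels that rest on under about 10 counts. The 4 detected aquaporins became 2 at a threshold of 2 TPM, which left aqp1a.1 and aqp11, and 3 with 1 CPM or with at least 10 counts. The number at 10 or above was 1 in TPM, 2 in CPM and 0 in FPKM. The summed level of 27.4 TPM was 38.1 in CPM and 22.045 in FPKM, which follows from the units, and ran from 23.8 to 31.0 TPM with 1 replicate left out. The share of aqp1a.1, 51.3% in TPM as the mean of both replicates, was 34.3% in CPM, where aqp11 led, and 48.1% to 54.5% with 1 replicate left out. With 1 replicate left out, 3 to 4 of the 8 aquaporins kept their place in the order, where genes tied at 0 counted as moved. In replicate 1 alone the 4 detected aquaporins kept their order, and in replicate 2 alone aqp3a stood above aqp11. The count of 1 aquaporin past 4-fold became 0 without removal of the median and 0 with the median taken over genes with a mean of at least 5 TPM, and stayed 1 with a pseudocount of 0.1, with CPM and without the filter on low values. The log2 ratio of aqp3a was below 0 in each of these settings. No paired analysis was possible because there was only 1 group.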
